A study of Mus musculus with 13 samples.

Results

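The integrin and laminin chain genes were described in RNA-seq of mouse bone marrow mesenchymal stromal cells (MSCs), across recovered, pre-leukemic and healthy libraries. They were chosen by symbol, as every integrin alpha, integrin beta and laminin alpha, beta or gamma chain gene in the deposited table. The rule found 37 of 33433 gene entries, namely 18 integrin alpha, 8 integrin beta and 11 laminin genes. Of these, 34 were above 0 FPKM (fragments per kilobase of transcript, scaled to library size) in at least 3 of the 13 libraries. The other members were Lama1, listed at 0 throughout, and Itga2 and Itgb6, each above 0 in 1 library. For tests, 30 members passed the filter of at least 1 FPKM in at least 3 libraries, and Itgad, Itga3, Lamb3 and Lamc3 were described but not tested.

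Integrins are cell surface receptors made of an alpha and a beta subunit, and the pairing sets what they bind. Integrins with the beta2 subunit are restricted to leukocytes, where they bind intercellular adhesion molecules, and those with alpha4 or beta7 serve leukocyte homing and retention in marrow. The matrix integrins hold cells to collagens, laminins or proteins with an RGD motif such as fibronectin and vitronectin. Laminins are trimers of an alpha, a beta and a gamma chain that assemble into basement membranes, and stromal and vascular cells of the marrow make several of them.

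The series compared MSCs from 4 recovered, 6 pre-leukemic and 3 healthy libraries, all of C57BL/6 mice. Recovered libraries were matched to the MSC-treated pre-leukemic mice of the protocol by their title, pre-leukemic libraries came from pre-leukemic mice without that label, and healthy libraries were titled as homeostatic controls. All cells had been sorted from nucleated cells of bone marrow and compact bone, and polyadenylated RNA was sequenced. The sources used here do not give the sort markers, the alleles or agents behind the pre-leukemic state, the ages or whether each library was a separate animal. The p-values therefore measure only how far these samples spread, which may be technical.

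Counts of reads were not used, and the FPKM value of 1 read on a transcript of 1 kb was estimated as 0.349 to 0.642 in recovered, 0.166 to 0.242 in pre-leukemic and 0.314 to 0.386 in healthy libraries. A 0 may be a failed estimate: Vcl, which every adherent cell uses to tie integrins to actin, was listed at 0 in 10 of 13 libraries. Healthy 1 and 3 differed by little more than the sampling noise and entered the tests as their mean, counted as 1 sample. Of the FPKM summed over all genes, immunoglobulin genes took at most 0.134% in a recovered library, 54.9% to 80.5% across the pre-leukemic group and at most 0.0301% in a healthy library. The label of the cells was checked against marker genes. The 13 mesenchymal markers summed to 4151 to 4920 FPKM in recovered, 3349 to 6624 FPKM in pre-leukemic and 4496 to 4779 FPKM in healthy libraries. In pre-leukemic libraries most of that sum was Ly6a, which haematopoietic cells also express. Ly6a was at 1922 to 2580 FPKM in recovered, 3150 to 6375 FPKM in pre-leukemic and 1103 to 1390 FPKM in healthy libraries. The summed level of the other 12, a split made after the values were seen, was 1725 to 2504 FPKM in recovered, 93.1 to 249 FPKM in pre-leukemic and 3107 to 3675 FPKM in healthy libraries. The 15 pan-leukocyte markers summed to 110.3 to 339 FPKM in recovered, 3316 to 4107 FPKM in pre-leukemic and 193 to 208 FPKM in healthy libraries, and none was at 0 throughout any group. The pre-leukemic libraries thus held leukocyte markers at high levels and, Ly6a apart, mesenchymal markers at a low summed level against their label. Not all of the 12 fell alike. Thy1 was at 39.9 to 70.9 FPKM in pre-leukemic and 66.1 to 81.5 FPKM in healthy libraries. Nt5e was at 1.39 to 26.9 FPKM in recovered, 11.3 to 27.7 FPKM in pre-leukemic and 59.3 to 75.9 FPKM in healthy libraries. Eng was at 2.76 to 11.1, 2.22 to 7.26 and 3.37 to 13.5 FPKM in these groups. The rest had lower medians in the pre-leukemic group than in both others.

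The leukocyte integrins Itgal, Itgam and Itgb2 were higher in pre-leukemic than in healthy libraries and lower in recovered than in pre-leukemic libraries. Every matrix integrin called in the first comparison was lower, and every one called in the second was higher. Itga5, Itga7, Itga10, Itgb1 and Itgb5 were called in both. Itga1, Itga11 and Itgb4 were called in the first alone, and Itgav in the second alone. Itgal encodes CD11a, the alpha subunit that pairs with Itgb2 on nearly all leukocytes (chr7:127296260-127335138, plus strand, GRCm38). It was at 3.49, 0.218, 2.1 and 0.263 FPKM in recovered 1 to 4, at 124 to 193 FPKM with a median of 140.3 in pre-leukemic libraries, and at 0.712, 0.0959 and 0.883 FPKM in healthy 1 to 3. Every pre-leukemic library stood far above the rest, and the recovered and healthy values overlapped. On log2(FPKM + 1), the scale of all changes given here, Itgal was higher by 6.72 ± 0.54 in pre-leukemic than in healthy libraries (limma adjusted p = 1.2e-06; SE, n = 6 and 2 samples). It fell by 6.11 ± 0.42 in recovered relative to pre-leukemic libraries (limma adjusted p = 1.11e-07; SE, n = 4 and 6). Such changes understate those of low genes.

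Itgb2, which encodes CD18, the shared beta subunit of this class, lies on chromosome 10 (chr10:77530252-77565708, plus strand). Its level was 2.86, 0.178, 7.63 and 0.143 FPKM in recovered 1 to 4, 76.6 to 115 FPKM with a median of 96.7 in pre-leukemic libraries, and listed as 0, 0 and 0.145 FPKM in healthy 1 to 3. No recovered or healthy library came near the pre-leukemic range, while recovered 1 and 3 lay above the other recovered libraries. The log2 difference was 6.53 ± 0.67 for pre-leukemic against healthy libraries (limma adjusted p = 8.76e-06) and -5.21 ± 0.53 for recovered against pre-leukemic libraries (limma adjusted p = 3.41e-06).

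Itgam encodes CD11b, the Itgb2 partner of neutrophils and monocytes (chr7:128062640-128118491, plus strand). It was listed as 0.113, 0.195, 0.288 and 0 FPKM in recovered 1 to 4, was at 2.2 to 16.9 FPKM with a median of 3.92 in pre-leukemic libraries, and was listed at 0 in all 3 healthy libraries. Pre-leukemic 3 was the high library, and the pre-leukemic libraries did not overlap the others. The test gave a limma adjusted p of 0.0063 for pre-leukemic against healthy libraries, which was 0.0708 without healthy 2. In recovered relative to pre-leukemic libraries Itgam fell by 2.24 ± 0.46 (limma adjusted p = 0.00149). The 2 genes next to it on chromosome 7 encode further Itgb2 partners, the dendritic cell subunit CD11c and the macrophage subunit CD11d. Itgax (chr7:128129547-128150657) was at 0.371 FPKM in recovered 1 and listed at 0 in the other recovered libraries, at 0 to 1.41 FPKM with a median of 0.805 in pre-leukemic libraries, and at 0 in healthy libraries, with a limma adjusted p of 0.199 for pre-leukemic against healthy. Itgad (chr7:128154376-128223816) was above 0 in 3 libraries, pre-leukemic 1, 5 and 6, at 1.7, 0.329 and 7.18 FPKM.

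**Figure D1:**
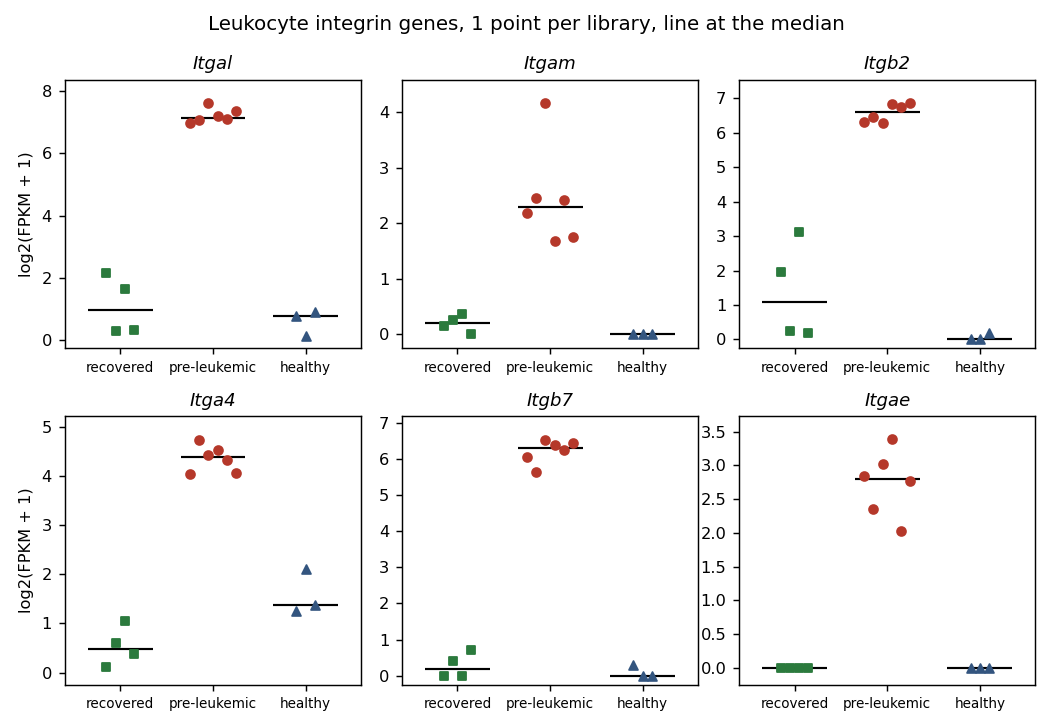
log2(FPKM + 1) of 6 leukocyte integrin genes in each library, with recovered, pre-leukemic and healthy groups along the x axis, 1 point per library and a line at the group's median. In every panel the 6 pre-leukemic points lie above all recovered and healthy points, and Itgae is listed at 0 in both of those groups.

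The subunits of leukocyte homing and retention were likewise high in pre-leukemic libraries. Itgb7, which encodes the beta7 subunit that pairs with alpha4 or alphaE (chr15:102215995-102231944, minus strand), was listed as 0, 0.32, 0 and 0.642 FPKM in recovered 1 to 4, was at 48.3 to 90.7 FPKM with a median of 78.4 in pre-leukemic libraries, and was listed as 0.232, 0 and 0 FPKM in healthy 1 to 3. The pre-leukemic libraries again stood apart, by 6.13 ± 0.45 against healthy libraries (limma adjusted p = 6.17e-07), and the recovered libraries fell by 5.93 ± 0.36 against them (limma adjusted p = 3.46e-08). Itga4 encodes CD49d, which binds Vcam1 when paired with beta1. Its level was 0.0746, 0.507, 1.06 and 0.305 FPKM in recovered 1 to 4, 15.5 to 25.7 FPKM with a median of 19.8 in pre-leukemic libraries, and 1.37, 3.29 and 1.6 FPKM in healthy 1 to 3. All 3 groups were apart for Itga4, with recovered libraries at the bottom. It was higher by 2.65 ± 0.48 in pre-leukemic than in healthy libraries (limma adjusted p = 0.00093), a call that ended when values were rescaled to a fixed sum per library (TPM scale; change 1.24, limma adjusted p = 0.111), and it fell by 3.83 ± 0.38 in recovered relative to pre-leukemic libraries (limma adjusted p = 2.79e-06). Itgae, the alphaE subunit of intraepithelial lymphocytes, was at 3.08 to 9.46 FPKM with a median of 5.99 in pre-leukemic libraries and listed at 0 in every recovered and healthy library. The limma adjusted p was 0.000433 for pre-leukemic against healthy and 3.28e-05 for recovered against pre-leukemic libraries.

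Leukocyte markers moved with these genes. All 15 pan-leukocyte markers were higher in pre-leukemic than in healthy libraries and all 15 were lower in recovered than in pre-leukemic libraries. Ptprc, which encodes the pan-leukocyte antigen CD45, was at 0.365 to 16.4 FPKM in recovered, 80.7 to 155 FPKM in pre-leukemic and 0.0798 to 1.25 FPKM in healthy libraries. The 12 neutrophil markers summed to 15.8 to 644 FPKM in recovered, 3131 to 15270 FPKM in pre-leukemic and 55.2 to 89.2 FPKM in healthy libraries, with 8 of the 12, S100a9 among them, listed at 0 throughout the healthy group. The 12 T and NK cell markers summed to 8.95 to 77.7 FPKM in recovered, 518 to 784 FPKM in pre-leukemic and 18.8 to 37.0 FPKM in healthy libraries, with Cd3d listed at 0 in all recovered and healthy libraries. The 12 monocyte and macrophage markers in the table summed to 16.2 to 112 FPKM in recovered, 3414 to 5169 FPKM in pre-leukemic and 22.5 to 25.2 FPKM in healthy libraries. The 12 B and plasma cell markers summed to 163 to 431 FPKM in recovered, 48070 to 85540 FPKM in pre-leukemic and 254 to 286 FPKM in healthy libraries. All these sums were highest in the pre-leukemic group. The part of these cells in the integrin changes was not tested. In such bulk samples, fewer cells of a type and less RNA per cell cannot be told apart.

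The windows before the start of 3 members that moved together or apart are shown because the report turns on them: Itgam and Itgb7, high in pre-leukemic libraries, and Itgb5, low in them. They are the 250 bases upstream of the start in RefSeq, on GRCm38.p6, given 5′ to 3′ on the gene's strand, with capitals marking GAGGAA or its reverse complement TTCCTC, letters bound by PU.1-type factors of blood cells.
Itgam, chr7:128062390-128062639, plus strand: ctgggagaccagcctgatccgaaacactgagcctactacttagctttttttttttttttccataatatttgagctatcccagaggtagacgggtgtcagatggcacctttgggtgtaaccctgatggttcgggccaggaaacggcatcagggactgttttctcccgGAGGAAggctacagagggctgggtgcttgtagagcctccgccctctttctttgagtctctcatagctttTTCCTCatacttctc
Itgb7, chr15:102231936-102232185, minus strand: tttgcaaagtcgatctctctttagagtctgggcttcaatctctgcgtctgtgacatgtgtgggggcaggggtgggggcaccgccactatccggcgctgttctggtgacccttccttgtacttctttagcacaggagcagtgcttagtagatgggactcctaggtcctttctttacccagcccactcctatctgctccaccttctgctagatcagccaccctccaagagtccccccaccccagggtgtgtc
Itgb5, chr16:33829415-33829664, plus strand: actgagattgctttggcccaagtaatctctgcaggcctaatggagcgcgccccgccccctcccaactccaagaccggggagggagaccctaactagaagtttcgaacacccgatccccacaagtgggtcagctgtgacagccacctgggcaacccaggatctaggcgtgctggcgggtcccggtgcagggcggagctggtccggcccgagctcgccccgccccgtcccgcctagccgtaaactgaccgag
Itgam had matches whose first bases lay at -84 and -15 from the start, and the letters were in neither the Itgb7 nor the Itgb5 window. Both strands of the same 250 bases were searched for every gene with an entry, and 23.3% of 32817 windows held GAGGAA. Of the 21 described members with an entry, 12 had a match in any of their windows, a count of members and not of windows. These were Itgam, Itga2b, Itga11, Itga3, Itga5, Itgav, Itgb1, Lama2, Lama5, Lamb1, Lamb2 and Lamb3, mostly matrix integrins and laminins. Most members with an entry were themselves of those classes, and Itgal, Itgb2 and Itgae had no entry. Among the leukocyte integrins with an entry, Itgax, Itga4 and Itgb7 had no match. The GC-box letters GGGCGG, which do not overlap GAGGAA, were in 32.7% of all windows and in 8 of the 21, with 3 matches in the Itgb5 window. These matches describe letters and do not mark binding sites.

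Within each library the beta subunit genes showed which class prevailed. Added up over the 8 beta genes, the FPKM of Itgb2 and Itgb7 came to 0.39% to 4.19% in recovered, 73.3% to 86.7% in pre-leukemic and 0% to 0.0874% in healthy libraries. Itgb1 and Itgb5 together held 93.0% to 95.2% in recovered, 12.6% to 22.8% in pre-leukemic and 96.3% to 97.5% in healthy libraries. In no library of any group did the 2 pairs come near parity. These shares compare genes on the per-length FPKM scale and are the same whatever factor scales a library. Among the alpha genes Itgal held 0.0751% to 1.75% of the sum in recovered, 63.5% to 72.7% in pre-leukemic and 0.0414% to 0.698% in healthy libraries. Itgb1 and Itgb5 thus prevailed in the recovered and healthy libraries and Itgb2 and Itgb7 in the pre-leukemic ones. Itgav made up 35.2% to 86.2% of the alpha sum in recovered, 7.46% to 14.8% in pre-leukemic and 22.4% to 40.6% in healthy libraries, and the ranges of the recovered and healthy libraries overlapped.

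**Figure D2:**
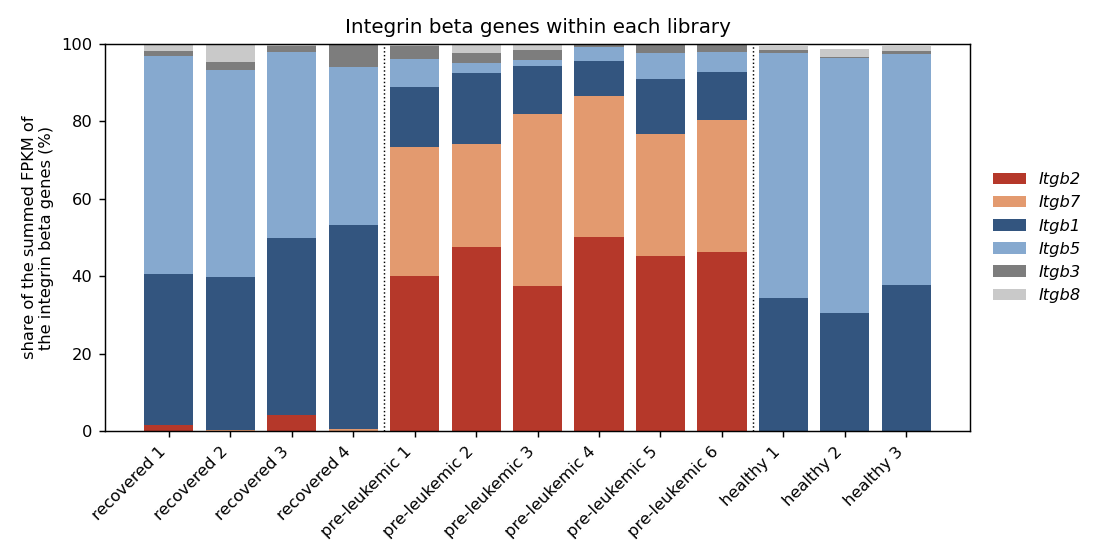
Share of the summed FPKM of the integrin beta genes in percent (y axis) for each of the 13 libraries (x axis), with 1 colour per gene; Itgb4 and Itgb6 are in the sum but not drawn. Itgb2 and Itgb7 take at most 4.19% of a recovered bar, 73.3% to 86.7% of a pre-leukemic bar and at most 0.0874% of a healthy bar.

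Of the matrix integrins, 8 of 17 genes were lower in pre-leukemic than in healthy libraries, where 13.1% of all genes tested were lower and 14.2% higher. Of the 17, 0 were higher, also at an unadjusted limma p under 0.05, and 6 of those tested did not pass. The rest were not tested. Markers of stromal cells moved with these genes: the mesenchymal sum without Ly6a given above, and the 8 smooth muscle and pericyte markers, which summed to 76.9 to 154 FPKM in recovered, 0.218 to 1.81 FPKM in pre-leukemic and 97.1 to 147 FPKM in healthy libraries, with Acta2, Myh11, Rgs5, Mcam and Cnn1 listed at 0 throughout the pre-leukemic group. Their part in the matrix integrin and laminin results was not tested. Itgb1, the most widely paired beta subunit (chr8:128685654-128733200, plus strand), was at 72.5, 50.4, 83.4 and 87.9 FPKM in recovered 1 to 4, at 20.1 to 33.5 FPKM with a median of 30.6 in pre-leukemic libraries, and at 91.6, 75.7 and 100.4 FPKM in healthy 1 to 3. The pre-leukemic libraries were below every other one. Itgb1 fell by 1.55 ± 0.36 in pre-leukemic relative to healthy libraries (limma adjusted p = 0.0053) and was higher by 1.31 ± 0.28 in recovered than in pre-leukemic libraries (limma adjusted p = 0.00226). Itgb5, which pairs with alphav as a vitronectin receptor (chr16:33829665-33949338, plus strand), was at 105, 68.3, 87.1 and 68.1 FPKM in recovered 1 to 4, at 3.36 to 15.6 FPKM with a median of 10.5 in pre-leukemic libraries, and at 168, 163 and 159 FPKM in healthy 1 to 3. The 3 groups did not overlap. Itgb5 fell by 4.10 ± 0.52 in pre-leukemic relative to healthy libraries (limma adjusted p = 5.53e-05), and rose by 3.09 ± 0.41 in recovered relative to pre-leukemic libraries (limma adjusted p = 4.38e-05). The recovered libraries, all below the healthy ones, gave no call against them (change -1.01 ± 0.56, limma adjusted p = 0.403).

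Itgav encodes the alpha subunit of the vitronectin receptors. Its level was 105, 38.4, 197 and 302 FPKM in recovered 1 to 4, 16.6 to 33.6 FPKM with a median of 19.2 in pre-leukemic libraries, and 32.3, 94.1 and 28.3 FPKM in healthy 1 to 3. The recovered libraries were above all pre-leukemic ones but spread widely, and pre-leukemic 4 lay above healthy 1 and 3. Itgav rose by 2.52 ± 0.51 in recovered relative to pre-leukemic libraries (limma adjusted p = 0.00136), and the pre-leukemic against healthy difference of -1.31 ± 0.64 did not pass (limma adjusted p = 0.149). That difference passed on the TPM scale (-2.91, limma adjusted p = 0.00374), with array weights (0.0394) and in a fit of only the groups compared (0.035). Itga5, the alpha subunit of the main fibronectin receptor, was at 17.8, 17.5, 2.41 and 8.07 FPKM in recovered 1 to 4, at 0.0878 to 2.29 FPKM with a median of 0.31 in pre-leukemic libraries, and at 10.3, 14.3 and 9.6 FPKM in healthy 1 to 3. Pre-leukemic 5 and recovered 3 nearly met, and otherwise the groups were wide apart. Itga5 fell by 3.11 ± 0.68 in pre-leukemic relative to healthy libraries (limma adjusted p = 0.00332, and 0.0609 without healthy 2) and rose by 2.77 ± 0.53 in recovered relative to pre-leukemic libraries (limma adjusted p = 0.000942).

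The remaining subunits of this class gave no call in the fit reported; for pre-leukemic against healthy libraries Itga9 (-2.05, limma adjusted p = 0.0174) and Itgb8 (-2.17, 0.0415) passed on the TPM scale, and Itgb3 with array weights (0.0489). Itga8, which binds nephronectin, was above 0 in recovered 1 and 4, at 4.445 and 8.17 FPKM, in healthy 1 and 3, at 2.07 and 2.49 FPKM, and in no pre-leukemic library. For recovered against pre-leukemic libraries its limma adjusted p was 0.0718, and without recovered 2 or recovered 3 it was 0.0245 or 0.0236. Itga9, a tenascin receptor subunit, was at 0.332 to 5.17 FPKM in recovered, 0 to 2.86 FPKM in pre-leukemic and 2.05 to 4.03 FPKM in healthy libraries, and the groups overlapped. Itgb3, which pairs with alphav or with the platelet alpha subunit, was at 2.38 to 9.3 FPKM in recovered, 1.39 to 6.47 FPKM in pre-leukemic and 0.82 to 2.03 FPKM in healthy libraries. It is the 1 tested matrix subunit whose pre-leukemic minus healthy difference was above 0, at 1.19 ± 0.60 (limma adjusted p = 0.156). Itgb8, an alphav partner that activates latent TGF-beta, was at 0 to 6 FPKM in recovered, 0 to 4.27 FPKM in pre-leukemic and 3.16 to 5.26 FPKM in healthy libraries.

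The collagen receptor alphas were low in pre-leukemic libraries. Itga10, a collagen receptor subunit of cartilage, was at 9.82, 1.16, 5.77 and 4.39 FPKM in recovered 1 to 4, at 0 to 0.401 FPKM with a median of 0.019 in pre-leukemic libraries, and at 11.4, 17.9 and 14 FPKM in healthy 1 to 3. No 2 groups overlapped. Itga10 fell by 3.86 ± 0.55 in pre-leukemic relative to healthy libraries (limma adjusted p = 0.000147) and rose by 2.28 ± 0.44 in recovered relative to pre-leukemic libraries (limma adjusted p = 0.000906). Itga11, the receptor subunit for fibrillar collagen on fibroblasts, was at 13.2, 2.27, 17.7 and 3.04 FPKM in recovered 1 to 4, at 0.501 to 7.21 FPKM with a median of 1.4 in pre-leukemic libraries, and at 22.4, 30.5 and 24.6 FPKM in healthy 1 to 3. The healthy libraries stood above all others, and recovered 2 and 4 fell within the pre-leukemic range. Itga11 fell by 3.38 ± 0.79 in pre-leukemic relative to healthy libraries (limma adjusted p = 0.0055, and 0.0745 without healthy 2). The recovered against pre-leukemic difference of 1.53 ± 0.63 did not pass (limma adjusted p = 0.0651), and it passed without recovered 2 (0.0298), without recovered 4 (0.0448) or without pre-leukemic 4 (0.0252), and also under quantile normalization (2.07, limma adjusted p = 0.0098) and on the TPM scale (2.43, 0.00422).

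Itga1, a collagen receptor subunit that favours basement membrane collagen, was high in healthy libraries alone. It was listed as 0, 0, 0 and 0.781 FPKM in recovered 1 to 4, as 0 to 0.369 FPKM with a median of 0.0945 in pre-leukemic libraries, and was at 2.56, 5.49 and 2.3 FPKM in healthy 1 to 3. All recovered and pre-leukemic values lay below 1 FPKM and below the healthy ones. Itga1 fell by 2.05 ± 0.39 in pre-leukemic relative to healthy libraries (limma adjusted p = 0.00138) and by 2.03 ± 0.42 in recovered relative to healthy libraries (limma adjusted p = 0.0206). Between recovered and pre-leukemic libraries the difference was 0.02 ± 0.31 (limma adjusted p = 0.965).

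The laminin receptor subunits were split. Itgb4, the alpha6 partner of hemidesmosomes, was listed as 0, 0.072, 0 and 0.3 FPKM in recovered 1 to 4, at 0 to 0.0815 FPKM with a median of 0 in pre-leukemic libraries, and at 1.24, 3.08 and 1.14 FPKM in healthy 1 to 3. It fell by 1.56 ± 0.34 in pre-leukemic relative to healthy libraries (limma adjusted p = 0.00309). As with Itga1, the healthy libraries alone reached 1 FPKM, so both genes could pass the filter only through the group where they were high. Itga7, a laminin receptor subunit of muscle, was at 3.63, 0.943, 5.11 and 5.72 FPKM in recovered 1 to 4, listed at 0 in all 6 pre-leukemic libraries, and at 1.14, 1.84 and 1.36 FPKM in healthy 1 to 3. Its limma adjusted p was 0.000397 for recovered against pre-leukemic libraries. For pre-leukemic against healthy libraries it was 0.0469, which rose to between 0.0577 and 0.295 without any 1 of healthy 2, healthy 3 or the 6 pre-leukemic libraries. Itga6, the alpha subunit of the main laminin receptors, was at 39.7, 2, 4.17 and 4.41 FPKM in recovered 1 to 4, at 5.81 to 10.7 FPKM with a median of 7.74 in pre-leukemic libraries, and at 22.9, 52.9 and 26.3 FPKM in healthy 1 to 3. Recovered 1 was within the healthy range while the other recovered libraries were below every pre-leukemic one. Itga6 gave no call in any comparison. For recovered against healthy libraries its limma adjusted p was 0.171, and without recovered 1 it was 0.00759. For pre-leukemic against healthy libraries it was 0.0643, and 0.00651 or 0.0427 without recovered 1 or recovered 2. That difference of -2.04 ± 0.77 also passed under quantile normalization (-2.29, limma adjusted p = 0.0212), on the TPM scale (-3.53, 0.00531), with array weights (0.0129), with healthy 1 and 3 as separate libraries (0.0342) and in a fit of only the groups compared (0.00252). Itga3, the epithelial laminin receptor subunit, was at 5.22 FPKM in recovered 4 and at most 1.16 FPKM elsewhere.

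**Figure D3:**
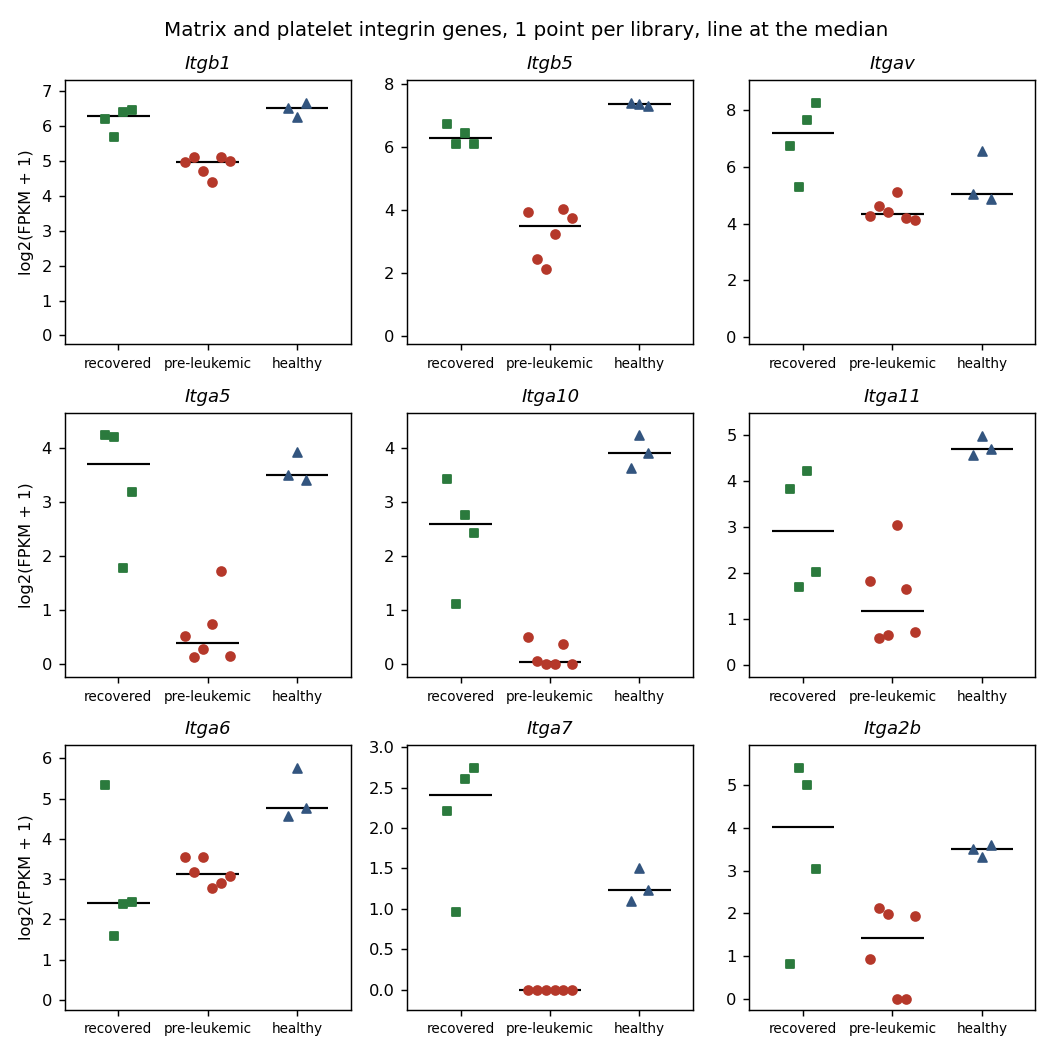
log2(FPKM + 1) of 8 matrix integrin genes and the platelet gene Itga2b in each library, with recovered, pre-leukemic and healthy groups along the x axis, 1 point per library and a line at the group's median. The pre-leukemic points are lowest for Itgb1, Itgb5, Itga5, Itga10 and Itga7, while for Itga6 3 of the 4 recovered libraries are lowest.

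Itga2b, the alpha subunit of the platelet fibrinogen receptor, did not follow the leukocyte genes. It was at 0.764, 40.8, 31.1 and 7.25 FPKM in recovered 1 to 4, at 0 to 3.39 FPKM with a median of 1.86 in pre-leukemic libraries, and at 10.4, 9.03 and 11 FPKM in healthy 1 to 3. Recovered 2 and 3 were highest, and recovered 1 fell within the pre-leukemic range. Itga2b rose by 2.40 ± 0.80 in recovered relative to pre-leukemic libraries (limma adjusted p = 0.0287). The call ended without recovered 2 (0.0975), recovered 3 (0.0882), pre-leukemic 4 (0.0573) or pre-leukemic 5 (0.0586), and also with no filter (0.0605) or array weights (0.111). For pre-leukemic against healthy libraries its limma adjusted p was 0.114, and 0.0418 without recovered 1, 0.0157 on the TPM scale (change -3.28), 0.0428 with array weights, 0.0439 with healthy 1 and 3 separate and 0.0231 in a fit of only the groups compared. The 8 megakaryocyte and platelet markers summed to 41.8 to 79.8 FPKM in recovered, 2.78 to 22.9 FPKM in pre-leukemic and 9.64 to 25.5 FPKM in healthy libraries, and the defining markers Gp1ba, Gp9, Gp6 and Treml1 were listed at 0 in every recovered library. Their part in the Itga2b result was not tested.

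Among the laminins, Lamc1 was highest in recovered libraries, and Lama2, Lama4, Lamb1 and Lamb2 were low in pre-leukemic libraries. Lamc1, the gamma1 chain of most laminin trimers (chr1:153218922-153332786, minus strand), was at 81.2, 97.6, 99 and 111 FPKM in recovered 1 to 4, at 11.3 to 44.3 FPKM with a median of 31.3 in pre-leukemic libraries, and at 62, 60.3 and 45.1 FPKM in healthy 1 to 3. The 3 groups did not overlap, with recovered libraries highest. Lamc1 rose by 1.73 ± 0.36 in recovered relative to pre-leukemic libraries (limma adjusted p = 0.00175). Neither the pre-leukemic against healthy difference of -0.98 ± 0.46 (limma adjusted p = 0.132) nor the recovered against healthy difference of 0.75 ± 0.49 (limma adjusted p = 0.49) passed. On the TPM scale, where the median change of all genes was -1.12, the pre-leukemic against healthy difference was -2.59 and passed (limma adjusted p = 0.000434).

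Lamb2, the beta2 chain (chr9:108479736-108490530, plus strand), was at 37.3, 9.63, 39.8 and 14.4 FPKM in recovered 1 to 4, at 1.05 to 3.21 FPKM with a median of 1.61 in pre-leukemic libraries, and at 38.8, 34.4 and 36.8 FPKM in healthy 1 to 3. Recovered 1 and 3 lay near the healthy libraries, and recovered 2 and 4 lay between the groups. Lamb2 fell by 3.76 ± 0.58 in pre-leukemic relative to healthy libraries (limma adjusted p = 0.000259) and rose by 3.04 ± 0.46 in recovered relative to pre-leukemic libraries (limma adjusted p = 0.000122). Lamb1, the beta1 chain, was at 17.2, 9.43, 28.8 and 7.57 FPKM in recovered 1 to 4, at 0.65 to 2.56 FPKM with a median of 1.46 in pre-leukemic libraries, and at 8.65, 7.72 and 9.22 FPKM in healthy 1 to 3. The pre-leukemic libraries stood below, and the recovered range took in the healthy one. Lamb1 fell by 1.92 ± 0.56 in pre-leukemic relative to healthy libraries (limma adjusted p = 0.0206, and 0.12 without healthy 2) and rose by 2.60 ± 0.45 in recovered relative to pre-leukemic libraries (limma adjusted p = 0.000367). The ratio of Lamb2 to Lamb1, which no library scaling alters, was 2.16, 1.02, 1.38 and 1.9 in recovered 1 to 4, 0.8 to 1.91 in pre-leukemic libraries, and 4.49, 4.46 and 4 in healthy 1 to 3. The recovered ratios lay below every healthy one and overlapped the pre-leukemic ones.

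The alpha chains varied most among libraries. Lama2, the alpha chain of muscle and stromal basement membranes, was at 14.6, 4.24, 46.8 and 13.2 FPKM in recovered 1 to 4, at 0 to 6.19 FPKM with a median of 2.98 in pre-leukemic libraries, and at 30.4, 20.5 and 27.3 FPKM in healthy 1 to 3. Recovered 2 fell within the pre-leukemic range, and recovered 3 exceeded all healthy libraries. Lama2 fell by 3.10 ± 0.85 in pre-leukemic relative to healthy libraries (limma adjusted p = 0.0145, and 0.0862 without healthy 2) and rose by 2.37 ± 0.68 in recovered relative to pre-leukemic libraries (limma adjusted p = 0.0123). Lama4, the alpha chain of vascular and mesenchymal laminin, was at 34.9, 28.3, 4.02 and 11.6 FPKM in recovered 1 to 4, at 0.503 to 10.8 FPKM with a median of 3.73 in pre-leukemic libraries, and at 30.2, 30.1 and 32.7 FPKM in healthy 1 to 3. Recovered 3, the library with most Lama2, had least Lama4 of the recovered group and fell within the pre-leukemic range. Lama4 fell by 2.97 ± 0.89 in pre-leukemic relative to healthy libraries (limma adjusted p = 0.0237, and 0.145 without healthy 2). It rose by 1.98 ± 0.71 in recovered relative to pre-leukemic libraries (limma adjusted p = 0.0381), which ended without recovered 1 (0.114), recovered 2 (0.102), recovered 4 (0.0523), pre-leukemic 3 (0.0762), pre-leukemic 5 (0.0767) or pre-leukemic 6 (0.0686). It also ended when scaled without immunoglobulin genes (0.0755), with no filter (0.0699) and with array weights (0.11).

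Lama5, an alpha chain of many epithelial and vascular basement membranes, was at 4.94, 20.7, 13.7 and 0 FPKM in recovered 1 to 4, listed at 0 in all 6 pre-leukemic libraries, and at 0, 0 and 0.992 FPKM in healthy 1 to 3. It was high in 3 recovered libraries, while recovered 4 was listed at 0 as the pre-leukemic libraries were. The limma adjusted p was 0.00443 for recovered against pre-leukemic libraries. For recovered against healthy libraries it was 0.173, and 0.00694 without recovered 4. Chains of epithelial laminin were low: Lama3 reached at most 2.08 FPKM, in healthy 3, and Lamb3 at most 0.744 FPKM, in recovered 1. Lamc3 reached 2.73 FPKM in recovered 3 and was above 0 in 3 libraries.

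**Figure D4:**
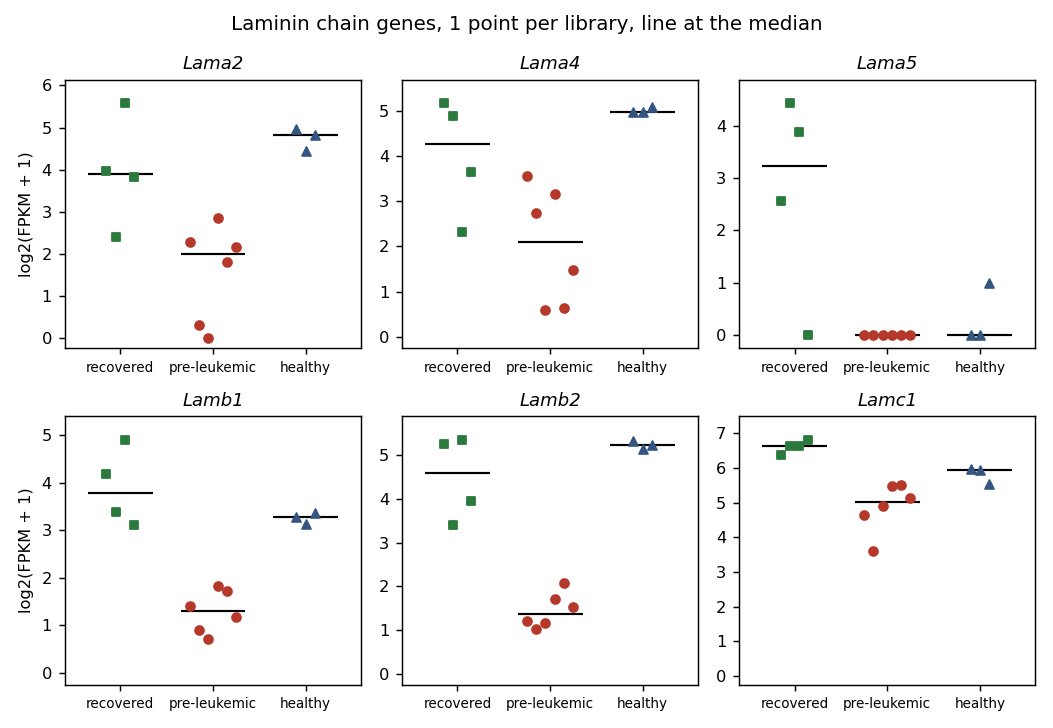
log2(FPKM + 1) of 6 laminin chain genes in each library, with recovered, pre-leukemic and healthy groups along the x axis, 1 point per library and a line at the group's median. The pre-leukemic points lie below all recovered and healthy points for Lamb1, Lamb2 and Lamc1, and recovered libraries are above healthy ones for Lamc1.

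Set side by side, the classes moved apart. The 3 leukocyte integrins summed to 0.406 to 10.01 FPKM in recovered, 206 to 286 FPKM in pre-leukemic and 0.0959 to 1.03 FPKM in healthy libraries. The 17 matrix integrins summed to 195 to 508 FPKM in recovered, 69.2 to 87.5 FPKM in pre-leukemic and 374 to 467 FPKM in healthy libraries. The 11 laminins summed to 159 to 238 FPKM in recovered, 21.1 to 62.6 FPKM in pre-leukemic and 156 to 174 FPKM in healthy libraries. For all 3 classes the pre-leukemic sums lay outside the range of the other groups, above it for the leukocyte integrins and below it for the matrix integrins and laminins.

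In pre-leukemic against healthy libraries, 6 of 37 members were higher, 12 lower, 12 passed in neither direction and the rest were not tested, where 27.3% of the 13118 genes tested were called (14.2% higher and 13.1% lower). Of the members called, Itgam, Itgae and Itgb7 reached 1 FPKM in pre-leukemic libraries alone, and Itga1 and Itgb4 in healthy libraries alone. Outside the pre-leukemic group, Itgal and Itgb2 reached 1 FPKM only in recovered 1 and 3, too few libraries for the filter. All these genes could pass the filter only through the group where they were high. All 3 leukocyte integrins were higher, with a median log2 change of 6.53. Of the matrix integrins 8 were lower (median -1.55 over the 14 tested), and of the laminins 4 (median -1.73 over the 8 tested), where the median of all genes tested was 0.20. On the TPM scale, where the median of all genes was -1.12, the members split into 5 higher and 19 lower of 28 tested. All genes on that scale split into 787 higher and 4284 lower of 12945 tested. With healthy 2 left out, which leaves the healthy group as 1 sample assumed to vary like the others, 4 members were lower; Itga1 and Itgb4 then failed the filter.

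In recovered against pre-leukemic libraries, 13 members were higher, 6 lower and 11 neither, where 40.0% of all genes were called (14.8% higher and 25.1% lower). All 3 leukocyte integrins were lower (median -5.21), 6 matrix integrins were higher (median 1.36) and 6 laminins were higher (median 2.18), where the median of all genes was -0.41. On the TPM scale that median was 0.62, and 14 members were higher and 6 lower of 28 tested. Of all genes on that scale, 3814 were higher and 1192 lower of 12945 tested. Both comparisons share the pre-leukemic libraries, so their opposite signs are not independent. Members that reached 1 FPKM in pre-leukemic libraries alone, Itgam, Itgax, Itgae and Itgb7, or in recovered libraries alone, Lama5, could pass the filter only by being high there. Itgal and Itgb2, which outside the pre-leukemic group reached 1 FPKM only in recovered 1 and 3, also passed only through that group.

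In recovered against healthy libraries, 0 members were higher and 2 lower, where 2.51% of all genes were called (0.518% higher and 1.99% lower). At an unadjusted limma p under 0.05, 1 member was higher and 7 were lower. The share of all genes at that threshold was not taken, so this count is not read as a result about the members. Both calls were at genes under 1 FPKM in every recovered library: Itga1, given above, and Itgb4, which fell by 1.46 ± 0.36 (limma adjusted p = 0.0455). The Itgb4 call ended without recovered 2 (0.0702), recovered 3 (0.0628) or any 1 of the 6 pre-leukemic libraries (0.0525 to 0.0728), which enter through the shared estimate of spread. Without any 1 of the healthy libraries neither gene passed the filter. Both calls ended under quantile normalization, a pseudocount of 0.1, array weights and a fit of only the groups compared (limma adjusted p of 0.0569 to 0.189 for Itga1 and 0.0597 to 0.222 for Itgb4). The 8 erythroid markers also differed between these groups, with sums of 1650 to 2638 FPKM in recovered and 35.3 to 49.7 FPKM in healthy libraries, and their part in the 2 calls was not tested. The median change was -0.74 over the matrix integrins tested, -0.72 over the laminins, 0.62 over the leukocyte integrins and -0.08 over all genes.

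**Figure D5:**
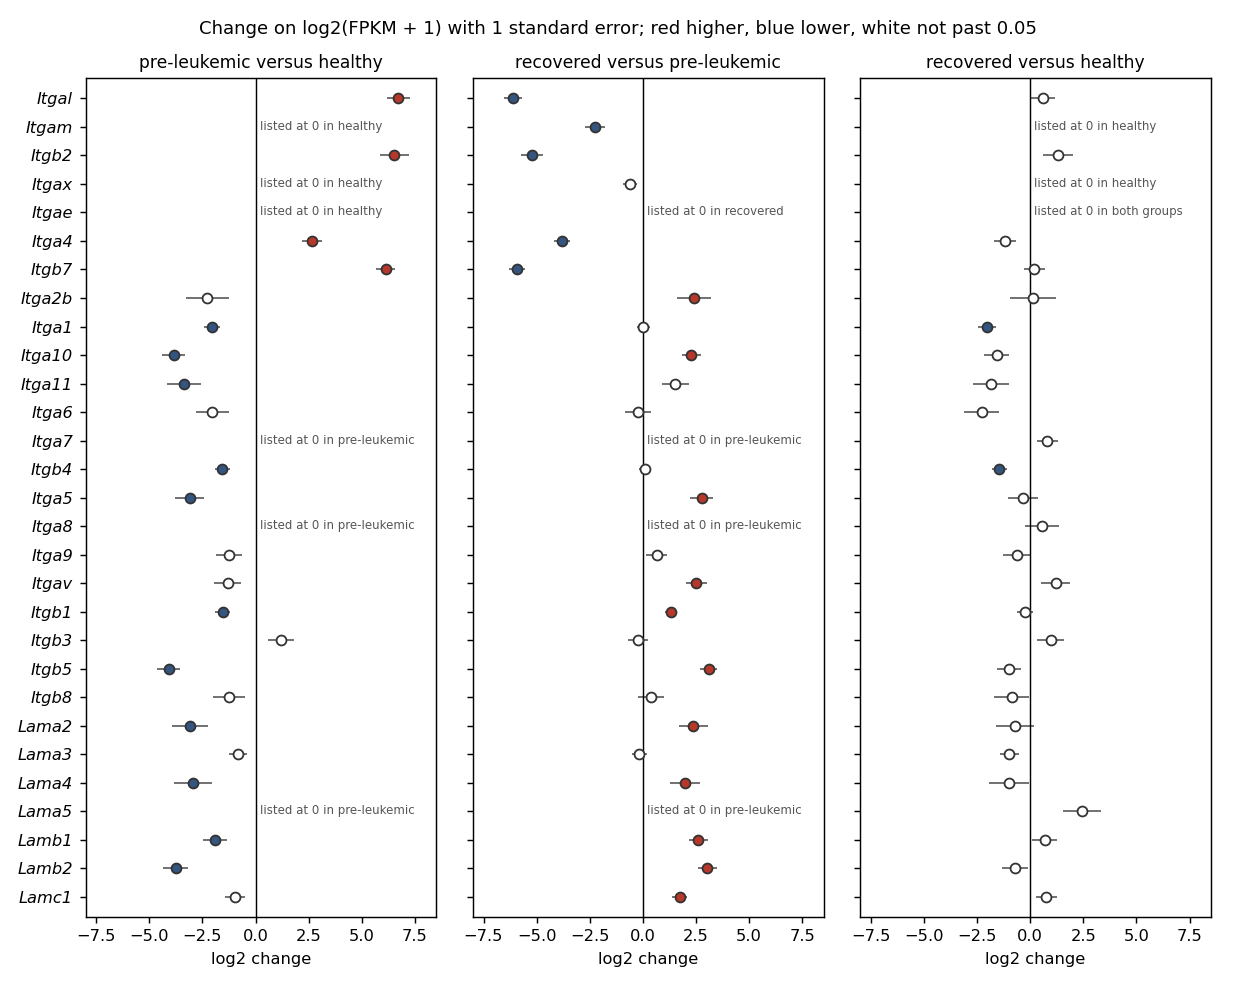
Change on log2(FPKM + 1) with 1 standard error (x axis) of the tested members reported here (y axis), for pre-leukemic versus healthy, recovered versus pre-leukemic and recovered versus healthy libraries; filled points are past an adjusted p of 0.05, and a member listed at 0 throughout a group has words in place of a point. The leukocyte genes lie to the right for pre-leukemic versus healthy and to the left for recovered versus pre-leukemic, and 2 points are filled for recovered versus healthy.

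Genes that work with the integrins were read from the same fit. Of 30 integrin adaptors and activators, 6 were higher, 4 lower and 17 neither in pre-leukemic against healthy libraries, where 14.2% of all genes were higher and 13.1% lower. In recovered against pre-leukemic libraries 7 were higher, 8 lower and 12 neither, where 14.8% of all genes were higher and 25.1% lower. The share of adaptors that were lower was near that of all genes in both comparisons. Fermt3 encodes kindlin-3, the integrin activator of blood cells. It was at 0.331 to 5.38 FPKM in recovered, 39.8 to 58.7 FPKM with a median of 46.6 in pre-leukemic and 0.963 to 1.48 FPKM in healthy libraries, a change of 4.52 ± 0.54 for pre-leukemic against healthy (limma adjusted p = 3.11e-05). Fermt2 encodes kindlin-2, the activator of most other cells, and is named because it is the counterpart of Fermt3, chosen after its values were seen. It was at 44.8 to 139 FPKM in recovered, 0.677 to 8.39 FPKM with a median of 3.79 in pre-leukemic and 56.9 to 82 FPKM in healthy libraries, a change of -3.95 ± 0.66 for pre-leukemic against healthy (limma adjusted p = 0.000485). The pair thus split as the leukocyte and matrix integrins did. Fyb, an adaptor that couples T cell receptor signals to integrins, changed by 6.16 ± 0.47 and the tensin Tns1, which ties beta1 integrins to actin, by -3.80 ± 0.46 in the same comparison.

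Of 15 integrin ligands, 1 was higher, 10 lower and 3 neither in pre-leukemic against healthy libraries (all genes 14.2% higher and 13.1% lower), and 10 were higher, 1 lower and 3 neither in recovered against pre-leukemic libraries (all genes 14.8% higher and 25.1% lower). Fn1, the fibronectin gene, was at 1002 to 2145 FPKM in recovered, 13.7 to 70.5 FPKM with a median of 29.1 in pre-leukemic and 1081 to 1159 FPKM in healthy libraries. Spp1, which encodes osteopontin, was at 526.4 to 915 FPKM in recovered, 12.2 to 90.1 FPKM with a median of 29.8 in pre-leukemic and 2312 to 3469 FPKM in healthy libraries. For both genes every pre-leukemic library lay below all others. The ligands of the leukocyte integrins, named for that role after their values were seen, differed among themselves. Vcam1, the alpha4 ligand on stroma, was at 31.3 to 64 FPKM in recovered, 0 to 5.17 FPKM with a median of 3.76 in pre-leukemic and 43.8 to 51.4 FPKM in healthy libraries (change -3.69 ± 0.63 for pre-leukemic against healthy, limma adjusted p = 0.00062). Icam2, a ligand of the beta2 integrins found on endothelium and leukocytes, was the 1 ligand that was higher (3.53 ± 0.76, limma adjusted p = 0.00325), and Icam1 did not pass (-1.16 ± 0.85, limma adjusted p = 0.338). Between recovered and healthy libraries, Egfl6 was the 1 ligand called, with a fall of 2.32 ± 0.39 (limma adjusted p = 0.00609).

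Of 15 genes of the laminin network and its receptors, 1 was higher, 10 lower and 4 neither in pre-leukemic against healthy libraries, with the same shares over all genes (14.2% and 13.1%). In recovered against pre-leukemic libraries 10 were higher, 1 lower and 4 neither (all genes 14.8% and 25.1%). Col4a1, a chain of basement membrane collagen, was at 49 to 87.1 FPKM in recovered, 0.916 to 4.2 FPKM with a median of 1.96 in pre-leukemic and 60.3 to 72.5 FPKM in healthy libraries (change -4.40 ± 0.48 for pre-leukemic against healthy, limma adjusted p = 1.43e-05). Hspg2, which encodes perlecan, a proteoglycan that binds laminin, was at 18.4 to 77.8 FPKM in recovered, 0.0747 to 1.07 FPKM with a median of 0.329 in pre-leukemic and 13 to 19.1 FPKM in healthy libraries (change -3.56 ± 0.55, limma adjusted p = 0.000258). The 1 gene higher was the syndecan Sdc1, which is also a plasma cell marker (1.1 ± 0.38, limma adjusted p = 0.043).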

How the data were processed

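The authors deposited 1 table of FPKM values for 13 libraries of MSCs. Per the submitters' processing notes it was made with bcl2fastq, TopHat, Cufflinks 2.2.1 and Cuffnorm on mm10. The sources used here do not give the library-size method or the annotation, and that method bears on every gene of a library in which few genes dominate. The members and gene lists were chosen with earlier results of these data known, and the list without Ly6a after its values were seen.

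Tests used limma 3.58.1 in R 4.3.3 on log2(FPKM + 1), with lmFit and a trended eBayes. A single fit took all 3 groups, with 12 samples and 9 residual degrees of freedom. It covered the 13118 genes that reached 1 FPKM in 3 or more libraries, over which p-values were adjusted by Benjamini and Hochberg, and calls are those under 0.05. The fit was tested on simulated normal values with 1 spread per gene shared by all groups. That test does not cover groups of unequal spread. Named were all members above 0 in at least 3 libraries and, of each list of pathway genes, up to 4 a comparison with the smallest p. A single item is not reported here; it stays in the counts, sums and medians.

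For depth, the spacing of low values was read in 5240 single-transcript genes (transcripts of 800 bp or more, tolerance 0.06 on log2). On a transcript of 1 kb, 3 reads were worth 1.05 to 1.93 FPKM (recovered), 0.497 to 0.727 FPKM (pre-leukemic) or 0.943 to 1.16 FPKM (healthy), an approximate floor for counting error only. Estimated reads of healthy 1 and 3 gave a chi-square of 1.22 per degree of freedom over 433 genes, against at least 9.79 for the other 23 pairs of libraries within a group. Their mean was used, and the separate libraries were an alternative.

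Coordinates are those of the GRCm38 annotation matched by symbol, and promoter windows are from RefSeq. Alternatives were quantile normalization, a TPM scale, scaling without immunoglobulin genes, a pseudocount of 0.1, no filter, a mean of at least 5 FPKM, array weights, robust eBayes, separate healthy libraries, a replicate block, a fit of only the groups compared, and each library left out in turn.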

Additional observations from a re-analysis of the deposited data

Results flagged for a closer look

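In groups of 4 or 6 libraries, 15 of 64 pairs of a gene and a group held a library that stood far from the others by Dixon's criterion, where chance flags about 1 in 20 groups; in 6 of the 15 all the other libraries of the group were listed at 0. Recovered 4 was the library in 5 of them. It had 5.22 FPKM of Itga3 and 9.3 FPKM of Itgb3, and low values of Itga1 (0.781 FPKM), Lama3 (0.488 FPKM) and Itgb6 (0.0699 FPKM) where the other recovered libraries were listed at 0. Recovered 1 had 39.7 FPKM of Itga6 and 0.371 FPKM of Itgax. Pre-leukemic 3 had 16.9 FPKM of Itgam, and pre-leukemic 6 had 7.18 FPKM of Itgad and 0.0815 FPKM of Itgb4. Pre-leukemic 4 was high for Itga11 at 7.21 FPKM and low for Itgb3 at 1.39 FPKM. Pre-leukemic 5 was high for Itga5 at 2.29 FPKM and for Itga9 at 2.86 FPKM, and pre-leukemic 2 had 0.0457 FPKM of Itga2.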

How the results depend on the processing

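For recovered against pre-leukemic, 11 to 14 integrin and laminin genes were called higher (13 in the fit reported) and 4 to 6 lower (6) over all alternatives, with 11 to 13 and 6 to 6 when a library was left out. For pre-leukemic against healthy, 4 to 7 were higher (6), 5 to 6 with a library left out. The lower genes numbered 12, against 19 on the TPM scale and 4 to 14 with a library left out, the 4 without healthy 2. For recovered against healthy, 0 were higher, and 0 to 1 with a library left out, the 1 without recovered 4. The lower genes numbered 2, against 0 under quantile normalization, a pseudocount of 0.1, a mean of at least 5 FPKM, array weights or only the groups compared, 1 under robust eBayes, and 0 to 3 with a library left out, the 0 without a healthy library, where neither gene passed the filter. Same-numbered libraries did not deviate together (correlations -0.0194 to 0.0337 over 10 pairs). This gave no sign that the numbers pair them, but a weak shared effect could be missed. With a replicate block, Itga1 was the 1 gene lower for recovered against healthy, and the Itgb4 call ended (limma adjusted p = 0.0795). The Lama4 call for recovered against pre-leukemic also ended (0.084). For pre-leukemic against healthy, the Itga7 call ended (0.0579) while Itga9 (0.047) and Lamc1 (0.0472) passed.

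Signs turned in members that were not called. For recovered against pre-leukemic, Itga1 was -0.0374 when scaled without immunoglobulin genes, -0.229 with a pseudocount of 0.1, -0.0183 with a replicate block, and -0.186 (without recovered 4) to 0.0915 with a library left out, with -0.00612, -0.0151 and -0.0151 without pre-leukemic 2, 4 or 6. Itga6 was 0.331 under quantile normalization, 0.989 on the TPM scale and -1.04 to 0.212 with a library left out, the highest without recovered 2; Itgb3 was 0.385 after quantile normalization and 0.842 on the TPM scale. Itgb8 was -0.0442 (without recovered 2) to 0.892 with a library left out and Lama3 was 0.0632 under quantile normalization. For recovered against healthy, Itga2b was -0.13 on the TPM scale, -0.13 without immunoglobulin genes, -0.0668 with a pseudocount of 0.1, -0.295 with array weights and -0.483 and -0.355 without recovered 2 or 3, and up to 1.04 with another library left out. Itga5 was -0.639 to 0.184, the highest without recovered 3, and Itga8 was -0.0274 with a replicate block, -0.0416 without recovered 4 and -0.303 without healthy 2, and up to 1.02. Lama5 was 0.122 with a replicate block for pre-leukemic against healthy. The cause was not tested. Values under about 1 FPKM are few reads on a transcript of 1 kb and more on a longer one. The transcript lengths of the members were not taken into account.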

Other observations

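The makeup of the integrin alpha genes in recovered and healthy libraries is given here as values with no test. Itga6 held 1.26% to 19.9% of the summed alpha FPKM in recovered and 18.9% to 22.8% in healthy libraries. Itga11 held 0.868% to 6.61% in recovered and 13.2% to 19.4% in healthy libraries, and Itga10 held 1.06% to 4.92% in recovered and 7.74% to 11.1% in healthy libraries. The ranges of Itga10 and Itga11 did not overlap. Itga2b held 37.4% of the alpha sum in 1 recovered library. Lama5 held 0% to 38.8% of the summed laminin alpha FPKM in recovered and 0% to 1.57% in healthy libraries.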
